A study of Homo sapiens with 16 samples.

Results

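The replication-dependent clustered histone genes are the genes for the core histones H2A, H2B, H3 and H4 and the linker histone H1 that cells transcribe in S phase to package newly made DNA. They were taken as every row of the array's gene table whose name begins with HIST1H, HIST2H, HIST3H or HIST4H, which gave 70 of the 34691 gene names, namely 6 for H1, 17 for H2A, 18 for H2B, 14 for H3 and 15 for H4. They were followed in MDA-MB-231, an established human triple-negative breast cancer line grown in DMEM with serum, on 16 Illumina bead arrays of total RNA from 8 groups of 2 samples. The groups, all treated for 48 h, received doxorubicin alone, doxorubicin with entinostat, doxorubicin with ATRA, all 3 drugs, entinostat alone, ATRA alone, entinostat with ATRA, or DMSO, the solvent control. Entinostat, an inhibitor of class I histone deacetylases, was given at 2.5 µM, ATRA (all-trans retinoic acid, the ligand of retinoic acid receptors) at 1 µM, and doxorubicin, a topoisomerase II poison that breaks DNA, at 0.2 µM. The labels number the samples of each group 1 and 2 without saying what the numbers stand for. In the main fit, on all 16 arrays, each p-value thus reflects how far the 2 samples of a group lay apart. That spread may be biological or technical. All groups are the same line, so nothing here extends to other cells.

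Most clustered histone transcripts carry no poly(A) tail. They end in a stem-loop that SLBP, the stem-loop binding protein, holds through processing, translation and decay, and their level rises in S phase and falls when DNA synthesis stops. Some of the same genes can also end in a downstream poly(A) signal, which gives tailed transcripts that accumulate in non-dividing or differentiating cells. The labelling kit named in the labels starts from an oligo(dT) primer, so tailed forms are read more readily than stem-loop forms, and the values below cannot be split between the 2 forms.

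Between 11402 and 12748 genes were detected per array at a detection p below 0.05. Of the 70 histone genes, 37 reached that limit on at least 2 arrays and were tested among 17126 genes: 2 for H1, 10 for H2A, 9 for H2B, 7 for H3 and 9 for H4. The other 33 averaged at most 6.78 signal units over the 16 arrays, with a highest single value of 26.2, against a noise SD of 7.34 to 7.48. Because 4 of the 37 were detected on doxorubicin arrays alone, the tested genes are a selection and not all clustered histone genes. Markers of the line behaved as labelled in part. VIM (vimentin) read 11816.6 to 18801.8 and CD44 1020.8 to 2339.6 on every array. ESR1 and PGR were detected on 0 arrays, at signals of up to 13.4 and 2.3. ERBB2 was detected on 1 array but read 32.5 to 81.6 over the 16, above the noise SD on each. Its detection count alone thus does not show it to be absent. EPCAM, which is low in this line as a rule, read 131 to 269.7 on all 16. Of markers of blood, endothelium and fibroblasts, PTPRC (leukocytes) and the fibroblast genes DCN and LUM were detected on 0 arrays. CD14 and PECAM1 were detected on 13 each, at signals of 44.2 to 796.2 and 11.3 to 104.3 over the 16 arrays. VWF was detected on 4, at up to 122, and CDH5 and CD3D on 1 each. The summed signal of these other-cell markers ran from 100 to 963.2 on doxorubicin arrays, against 67.2 to 569.9 on the arrays without it, and its part in the results below was not tested.

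The stretches just upstream of the start sites show what the genes share and where the types differ. Each is the 200 bases before the annotated start, 5′ to 3′ on the gene's own strand, from RefSeq on GRCh38.p14, with capitals marking CCAAT (a site of NF-Y), the TATA box written TATAAA, the octamer ATTTGCAT bound by POU2F1, the H1 promoter element AAACACA, and GGTCCG from an H4 promoter element, each searched on both strands with overlaps merged. Shown are the H2B, H2A, H3 and H4 genes that the results turn on and the H1 gene with the highest mean signal: HIST2H2BE (chr1:149886683-149886882, minus strand), HIST2H2BF (chr1:149812371-149812570, minus strand), HIST2H2AA3 (chr1:149842751-149842950, minus strand), HIST1H2AM (chr6:27893186-27893385, minus strand), HIST1H3H (chr6:27809851-27810050, plus strand), HIST2H4A (chr1:149832457-149832656, plus strand) and HIST1H1C (chr6:26056471-26056670, minus strand).
HIST2H2BE: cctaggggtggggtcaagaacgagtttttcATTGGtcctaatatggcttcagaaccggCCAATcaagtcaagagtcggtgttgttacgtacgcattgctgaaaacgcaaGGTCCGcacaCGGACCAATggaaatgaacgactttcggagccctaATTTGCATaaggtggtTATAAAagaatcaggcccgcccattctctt
HIST2H2BF: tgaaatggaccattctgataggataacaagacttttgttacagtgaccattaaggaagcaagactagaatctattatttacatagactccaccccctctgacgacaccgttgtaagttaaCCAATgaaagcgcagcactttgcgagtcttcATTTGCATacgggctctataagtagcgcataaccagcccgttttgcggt
HIST2H2AA3: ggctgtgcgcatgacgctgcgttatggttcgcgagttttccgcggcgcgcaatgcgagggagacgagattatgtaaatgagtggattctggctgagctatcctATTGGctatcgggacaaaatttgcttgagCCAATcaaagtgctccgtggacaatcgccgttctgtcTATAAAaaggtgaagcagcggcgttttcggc
HIST1H2AM: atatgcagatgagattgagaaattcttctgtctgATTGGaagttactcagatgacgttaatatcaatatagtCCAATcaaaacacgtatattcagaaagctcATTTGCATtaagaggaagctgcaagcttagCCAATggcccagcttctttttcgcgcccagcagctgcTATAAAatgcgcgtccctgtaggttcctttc
HIST1H3H: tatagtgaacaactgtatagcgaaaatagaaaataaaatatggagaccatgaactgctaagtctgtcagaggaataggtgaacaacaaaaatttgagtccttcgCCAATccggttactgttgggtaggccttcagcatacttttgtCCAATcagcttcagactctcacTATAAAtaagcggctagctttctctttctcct
HIST2H4A: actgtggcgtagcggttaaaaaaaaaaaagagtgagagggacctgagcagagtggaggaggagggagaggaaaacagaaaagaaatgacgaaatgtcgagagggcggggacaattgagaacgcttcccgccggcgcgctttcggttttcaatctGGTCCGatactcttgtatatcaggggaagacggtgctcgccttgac
HIST1H1C: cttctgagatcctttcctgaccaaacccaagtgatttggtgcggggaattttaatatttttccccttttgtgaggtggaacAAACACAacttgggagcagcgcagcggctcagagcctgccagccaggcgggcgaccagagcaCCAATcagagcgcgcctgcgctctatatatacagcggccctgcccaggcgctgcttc

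Of the 70 names, 65 matched 1 RefSeq gene, 5 H2B names matched several, and 60 had a promoter in the table. CCAAT stood in 50 of those 60 windows (83.3%), against 28% of 35116 promoters of all genes, and was in all 6 H1, all 16 H2A, all 13 H2B and all 12 H3 windows but in 3 of 13 for H4. TATAAA was in 36 of 60 (60%), against 8.59% of all promoters. The octamer was in 17 of 60 (28.3%), against 1.31%, with 9 of the 13 H2B and 7 of the 16 H2A windows holding it. AAACACA was in 6 of 60, all of them H1 genes, against 3.76% of all promoters. GGTCCG was in 15 of 60 (25%), of which 12 were H4 genes, against 7.71%. The HIST2H4A and HIST2H4B windows were identical over 200 of 200 bases, and those of HIST2H2AA3 and HIST2H2AA4 over 199 of 199 once shifted by 1, so the members of each pair are near-identical copies whose probes may read the same transcripts. The windows are also not all distinct stretches. HIST1H2AD and HIST1H3D have the same window, and some neighbours read in opposite directions share 153 to 193 bases, so the same site can be counted for both genes. A match is a run of letters and not a measured binding site.

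Doxorubicin gave most of the calls among these genes. With the 8 arrays that had doxorubicin set against the 8 that did not, averaged over the other drugs given, 11 of the 37 tested genes were higher (29.7%), against 19.8% of all genes tested, and 1 was lower, against 21.3%. The 11 were HIST2H2BE and HIST2H2BF, HIST2H2AA3, HIST2H2AA4, HIST1H2AM and HIST1H2AG, HIST1H3H, HIST1H3F and HIST2H3D, and HIST2H4A and HIST2H4B, by 1.15- to 2.71-fold. The 1 lower gene was HIST1H4C. The median change over the 37 was 0.18 on the log2 scale, with 29 above 0 and a range of -0.31 to 1.44, beside a median of 0.00036 over all genes. The higher genes were 4 of 10 for H2A, 2 of 9 for H2B, 3 of 7 for H3 and 2 of 9 for H4. Neither of the 2 tested H1 genes was called. The 11 higher and the 29 above 0 both include the near-identical pairs HIST2H2AA3 with HIST2H2AA4 and HIST2H4A with HIST2H4B. The 2 higher H4 genes are thus 1 such pair. The 37 also hold the 4 genes that passed the filter through doxorubicin arrays alone. The main fit counts a shift shared by arrays of the same number as spread within groups. With the replicate number as a block, all 5 uncalled genes above 0.5 on the log2 scale passed, at adjusted p-values of 5.482e-06 to 0.0003969. They were HIST1H2AC, HIST1H4H, HIST2H2AC, HIST1H2BJ and HIST1H2BK. Shares of all genes called under other settings are not given here. Without entinostat replicate 2 the count of higher genes was 7, and over all single arrays left out it ran from 7 to 16. With the background estimated from the detection p-values it was 6, which ended the calls of both HIST2H2AA copies and of the 3 H3 genes. The size of a change depends on that step as well: HIST2H2BE was at 0.39 and HIST2H2BF at 0.14 with it, and at 1.85 and 1.07 with an offset of 16, on the log2 scale. The cultures were measured in bulk, so a change in the share of cells that hold a transcript and a change in its amount per cell, in either direction, cannot be told apart. Fold changes here are on the background-corrected log2 scale with an offset of 50 signal units, which understates the change of dim genes.

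**Figure D1:**
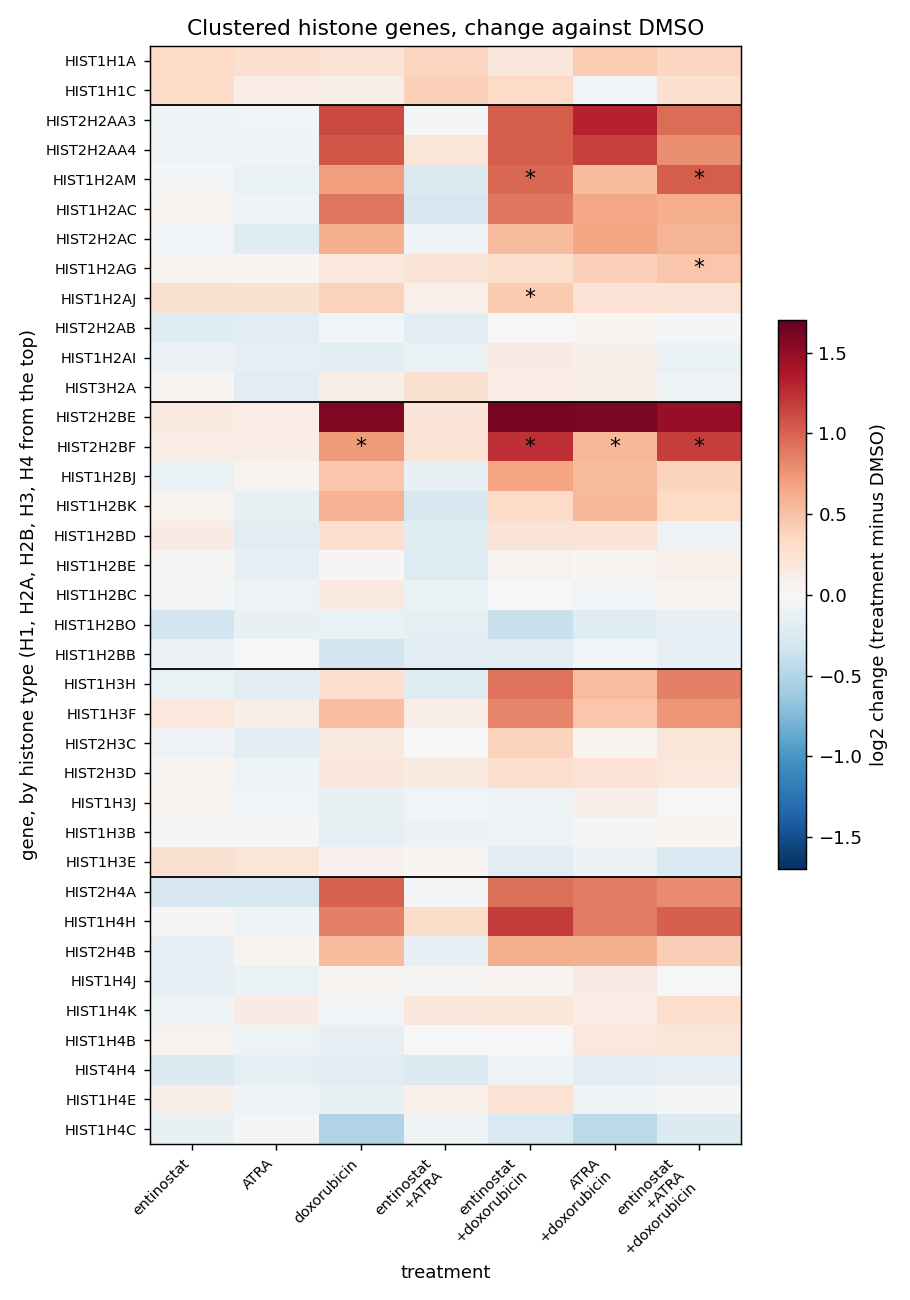
Log2 change of each of the 37 tested histone genes (rows, by type) in the 7 treatments against DMSO (columns), as a colour scale, with an asterisk where limma's adjusted p was below 0.05. The columns with doxorubicin hold every asterisk, 1 to 3 a column, and HIST2H2BF has one in each of the 4.

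Both H2B genes called lie in the HIST2 cluster on chromosome 1, and in both every doxorubicin array exceeded every array without it that had the same number. HIST2H2BE (H2BC21), an H2B gene known to make tailed transcripts in non-dividing cells, had signals of 317.3, 411.8, 363.4 and 392.9 on the number 1 arrays with doxorubicin alone, with entinostat, with ATRA and with both, against 59.3, 47.4, 78.8 and 42.3 with entinostat, ATRA, the pair and DMSO. On the number 2 arrays, in the same order, it had 118.8, 94.4, 104.4 and 69.8 with doxorubicin, against 12.8, 15.7, 7.2 and 5.5 without it. The groups overlap only when the 2 numbers are mixed, since the number 2 arrays lay far below the number 1 arrays throughout. Its change was 1.44 (SE 0.31), or 2.71-fold, the largest of the 37, at an adjusted p of 0.001479. HIST2H2BF (H2BC18), another H2B gene of that cluster, had 83.4, 161.1, 72.6 and 131.2 on number 1 with doxorubicin, against 31.2, 39.1, 53.3 and 30 without it. The number 2 arrays gave 95.3, 159.9, 73.5 and 171.5 with doxorubicin, against 42.2, 33.3, 38.9 and 24.8 without it. Here the 2 numbers gave like signals, and all 8 doxorubicin arrays stood above all 8 others, with the 4 that also had entinostat the highest. The change was 0.80 (SE 0.06), or 1.74-fold, at an adjusted p of 2.509e-07.

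HIST1H2BK, the H2B gene with the highest mean signal, was not called over all arrays (0.54, SE 0.25, adjusted p = 0.09999). Its number 1 signals were 2160.2, 2122.7, 2554.9 and 2203.3 with doxorubicin, against 1824, 1867.7, 1320.6 and 1972 without it. Number 2 gave 1745.7, 1199.4, 1393.2 and 1202.8, against 950.4, 709.8, 810.8 and 816.4. Within each number the 4 doxorubicin arrays were above the other 4. The remaining 6 tested H2B genes were not called, among them HIST1H2BJ at 0.56 (SE 0.22, adjusted p = 0.05183), which is named after its values were seen.

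**Figure D2:**
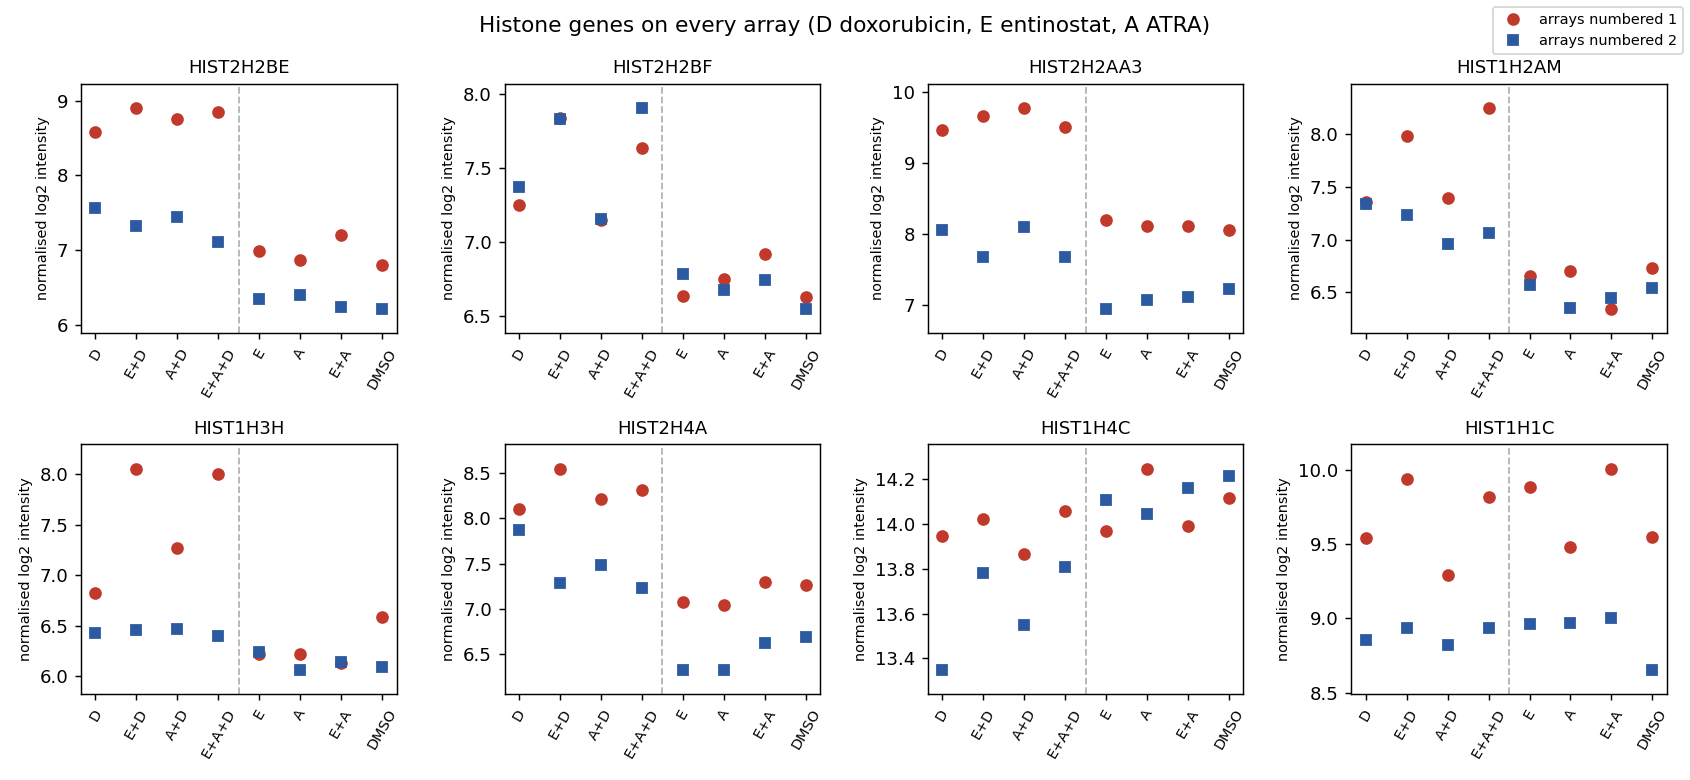
Normalised log2 intensity (vertical axes, each with its own range) of 8 histone genes on all 16 arrays, with the 4 doxorubicin groups left of the dashed line and the 4 groups without it on the right, red circles for arrays numbered 1 and blue squares for arrays numbered 2. In HIST2H2BE, HIST2H2AA3 and HIST1H1C the red circles lie above the blue squares in every group, whereas in HIST2H2BF the 2 colours mix.

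Among H2A genes the called ones were HIST2H2AA3, HIST2H2AA4, HIST1H2AM and HIST1H2AG. HIST2H2AA3 (H2AC18) had 643, 743.7, 815.5 and 659.1 on number 1 with doxorubicin, against 224.8, 208.5, 211.2 and 197.3 without it. It had 196.7, 137.9, 205.4 and 137.1 on number 2 with the drug, against 54.4, 65.8, 69.2 and 80.7 without. Within a number the groups are far apart, but the number 2 doxorubicin arrays overlap with or lie below the number 1 arrays without the drug. Over all arrays its change was 1.14 (SE 0.39), or 2.2-fold, at an adjusted p of 0.02805. Its copy HIST2H2AA4 had 602.1, 950, 950.4 and 611 with doxorubicin, against 265.8, 284.3, 308.9 and 261.8 without it, on number 1. On number 2 the copy had 329.2, 184.1, 232.2 and 203.3, against 102.3, 88.6, 148.8 and 116.9. It changed by 0.99 (SE 0.34), or 1.98-fold, at an adjusted p of 0.0314. Each of these copies lost its call when any of 8 arrays was left out, namely the 4 doxorubicin arrays numbered 1 and the 4 arrays without doxorubicin numbered 2, with adjusted p-values of 0.06485 to 0.07651 for HIST2H2AA3 and 0.06371 to 0.08476 for HIST2H2AA4.

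HIST1H2AM (H2AC17), an H2A gene of the large HIST1 cluster on chromosome 6, had 95.2, 185.4, 100.2 and 236.4 on number 1 with doxorubicin, against 32.5, 35.6, 12.5 and 36.9 without it. Its number 2 values were 92.1, 83.5, 55.9 and 66, against 26.7, 13, 18.8 and 24.5. All 8 doxorubicin arrays were above all 8 others, with the 2 highest values on the number 1 arrays that had entinostat and doxorubicin together. The change was 0.91 (SE 0.15), or 1.87-fold, at an adjusted p of 0.0002332. HIST1H2AG stayed dim, at 13.2 to 49.9 on number 1 and 11.9 to 19.1 on number 2 with doxorubicin, against 2.2 to 14.8 and 3.0 to 16.6 without it. It was detected on 3 arrays, and its change of 0.26 (SE 0.08, adjusted p = 0.01425) is a small step near the noise. HIST1H2AJ was also dim: it had 26.2, 49.8, 32 and 25.5 on number 1 with doxorubicin, against 22.8, 39.3, 22.6 and 8.3 without it, and overlapping values on number 2. Over all arrays it was not called (0.18, SE 0.08, adjusted p = 0.07269). All 10 tested H2A genes had a change above 0, with a median of 0.47. Of these, HIST1H2AI and HIST2H2AB passed the filter through doxorubicin arrays alone, and HIST2H2AA3 and HIST2H2AA4 are near-identical copies. The share of all genes above 0 is not given. HIST1H2AC at 0.84 (SE 0.34, adjusted p = 0.06323) and HIST2H2AC at 0.67 (SE 0.31, adjusted p = 0.09671), named after their values were seen, were above their arrays without doxorubicin within each number.

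For H3, 3 of 7 tested genes were called, all from dim signals. HIST1H3H (H3C10) had 44.6, 198.4, 85.9 and 189.1 on number 1 with doxorubicin, against 6, 6.2, 1.6 and 27.1 without it. On number 2 it stayed at 18.2, 19.7, 20 and 16.4, against 7.4, -1.6, 2.2 and -0.2. The 2 number 1 arrays with entinostat and doxorubicin together stood apart from all others, and the number 2 arrays stayed below 22.4, which is 3 times the noise SD. Over all arrays the change was 0.78 (SE 0.24), or 1.71-fold, at an adjusted p of 0.01723. HIST1H3F had the same 2 arrays highest: 32.6, 133, 66.8 and 117.2 on number 1 with doxorubicin, against 36.5, 18.7, 18.1 and 11.5 without it. Number 2 read 52.9, 26.7, 16.9 and 24.5, against 6.3, 11.9, 13.1 and 7. Its change was 0.54 (SE 0.17, adjusted p = 0.01898), and the adjusted p was 0.05243 without ATRA with doxorubicin replicate 1 and 0.05061 without entinostat replicate 2. HIST2H3D had 14.5 to 36.1 on the doxorubicin arrays, against -1.5 to 18.4 on the others, so the groups overlap. It was called at 0.20 (SE 0.07, adjusted p = 0.03933), with adjusted p-values of 0.019 to 0.103 on leaving out single arrays. The call ended without replicate 1 of DMSO, ATRA, entinostat with ATRA, doxorubicin or entinostat with doxorubicin, without replicate 2 of entinostat, entinostat with ATRA or ATRA with doxorubicin, and without either replicate of all 3 drugs.

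The H4 genes moved both ways. HIST2H4A (H4C14) had 204.9, 309.4, 228.1 and 252.1 on number 1 with doxorubicin, against 67.4, 63.9, 90.3 and 84.9 without it. It had 164.2, 88.9, 110.2 and 83 on number 2, against 11.7, 12.1, 30.3 and 34.3. Doxorubicin arrays were higher within each number, and the change was 1.05 (SE 0.22), or 2.07-fold, at an adjusted p of 0.001404. Its copy HIST2H4B had 98.5, 142.8, 108.5 and 130.2 on number 1 with doxorubicin, against 31.6, 48.5, 51.2 and 45.9 without it, and 69.2, 55.5, 75.2 and 32.3 on number 2, against 23.4, 31.3, 8.8 and 27.3. It changed by 0.60 (SE 0.15), or 1.51-fold, at an adjusted p of 0.004758.

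HIST1H4C, an H4 gene of the HIST1 cluster, was the 1 gene called lower. It had 15671.7, 16634.1, 14804.8 and 16957.8 on number 1 with doxorubicin, against 15817, 18964, 16233.3 and 17336.4 without it. On number 2 it had 10613.3, 14073.5, 11910.5 and 14278.8, against 17572.8, 16728, 18035.9 and 18964. The groups overlap on number 1 and separate on number 2. The change was -0.31 (SE 0.09), or 0.808 of the level without doxorubicin, at an adjusted p of 0.01519. These signals lie near the top of the arrays, whose highest values ran from 20404.6 to 22098.4, and saturation was not tested. HIST1H4H, named after its values were seen, was not called at 0.92 (SE 0.37, adjusted p = 0.05849), with 232.7, 460.3, 269.9 and 372.8 on number 1 with doxorubicin, against 108.6, 82.3, 183.6 and 84.8 without it. On number 2 it had 80.9, 66.8, 70.2 and 59.9, against 11.4, 14.6, 16.2 and 20.9, so the groups separate within each number. The tested H4 genes had a median change of 0.08.

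Neither tested H1 gene was called. HIST1H1C, a linker histone gene whose transcripts are also known in tailed form, had 680.1, 920, 566.6 and 835.5 on number 1 with doxorubicin, against 873, 651.3, 964.8 and 683 without it. It had 392.1, 415.2, 382.6 and 419.2 on number 2, against 431.1, 433.7, 447.1 and 334. The groups overlap on both numbers, and the change was -0.05 (SE 0.22, adjusted p = 0.8989). The other tested H1 gene, HIST1H1A, read -7.4 to 26.8 over the 16 arrays and had an adjusted p of 0.5272.

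The calls were also counted by cluster, beside the 19.8% of all genes higher and 21.3% lower. In HIST2 on chromosome 1, 7 of 10 tested genes were higher, with a median change of 0.74, while in HIST1 on chromosome 6 it was 4 of 25 higher and 1 lower, with a median of 0.10. The single tested genes of HIST3 and of HIST4, on chromosome 12, were not called, at 0.04 and 0.01. The difference between clusters was not tested, and the HIST2 count includes both near-identical pairs. Promoter letters were counted in the called genes too: TATAAA was in 8 of the 11 called higher and in 16 of 22 tested and not called higher, CCAAT in 9 of 11 and 16 of 22, the octamer in 3 of 11 and 6 of 22, and GGTCCG in 4 of 11 and 7 of 22. Genes that share 1 promoter and are read in opposite directions were set side by side. HIST1H2AM, at 0.91, shares 161 bases of its window with HIST1H2BO, which was at -0.06 (adjusted p = 0.6567). HIST2H2BE, at 1.44, shares 165 with HIST2H2AC, at 0.67 (adjusted p = 0.09671). HIST1H2BJ, at 0.56 (adjusted p = 0.05183), shares 153 with HIST1H2AG, at 0.26 (adjusted p = 0.01425). In the last 2 pairs both genes were thus above 0. In the other pairs with overlapping windows at most 1 gene was tested. These differences between neighbours were not tested.

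Signals of these genes also differed by replicate number. On the log2 scale, 19 of the 37 tested genes (51.4%) were higher on the number 1 array than on the number 2 array in all 8 groups and 0 were lower in all 8, beside 3.37% higher and 2.82% lower over all tested genes. The median difference, number 1 minus number 2, was 0.26 for the histone genes and 0.0006 over all genes. It was largest in HIST2H2AA3 at 1.38, HIST1H4H at 1.30, HIST1H2AC at 1.22, HIST2H2AA4 at 1.19 and HIST1H2BD at 1.07, and near 0 in HIST2H2BF at -0.03 and HIST1H2AJ at -0.03. In lists of genes that act on histones or in S phase, 1 of 16 for stem-loop processing, 1 of 11 for histone gene transcription, 1 of 13 for chaperones and 0 of 25 for S phase were higher on number 1 in all 8 groups. What the number marks is not given in the labels. Its part in the results was examined only by the values within each number that follow and by a fit with the number as a block.

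**Figure D3:**
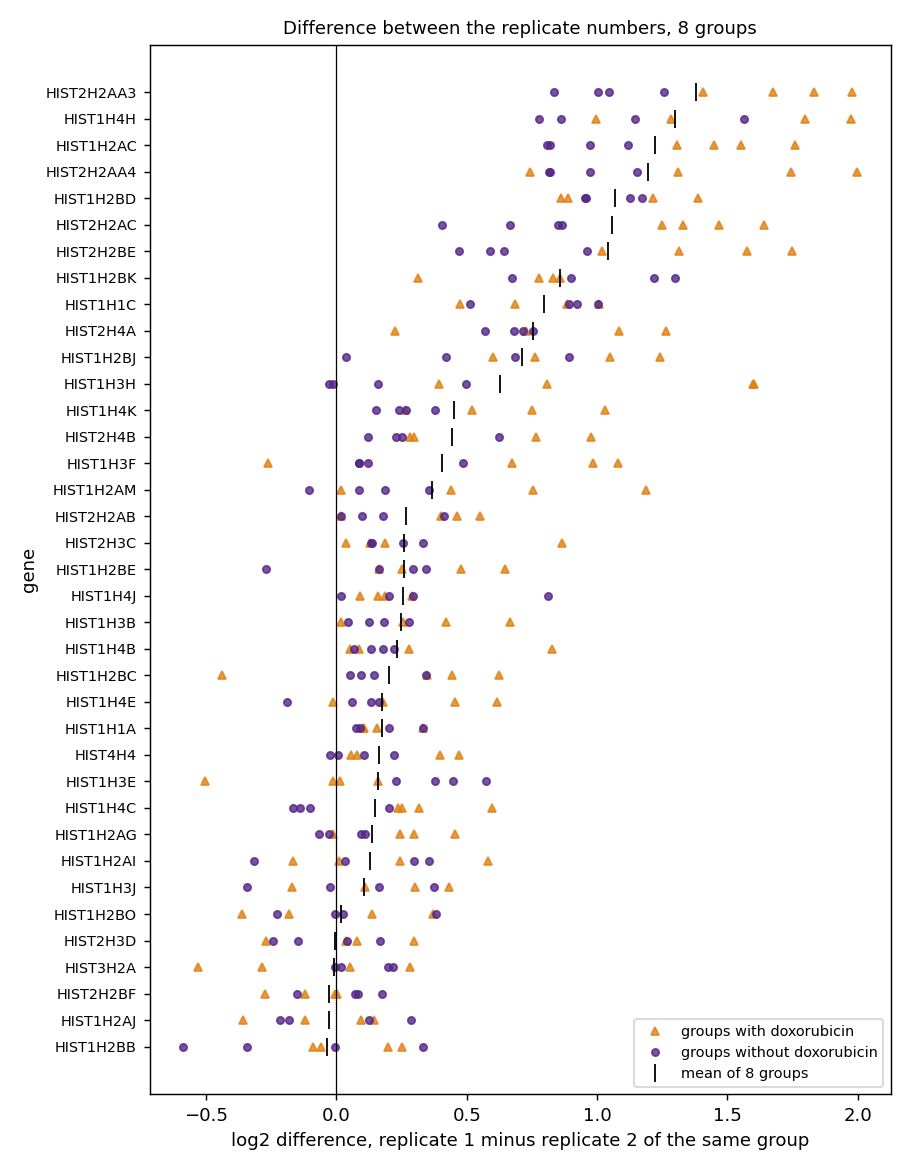
Difference in normalised log2 intensity between the number 1 and number 2 arrays of each of the 8 groups (points, horizontal axis) for each tested histone gene (rows). In 19 of the 37 rows all 8 points lie right of 0, and in 0 rows do all 8 lie left of it.

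Doxorubicin calls were also counted within each number. Such a fit holds 1 array a group, so its p-values rest on departures from the fitted drug terms. They do not measure the spread between samples of a group. Fitted on the 8 number 1 arrays alone, with a term for each drug and one for entinostat with doxorubicin, 15 of 37 genes were higher and 1 lower, beside 15.8% higher and 17.1% lower over all genes. The lower gene was HIST1H3E, at -0.49 (adjusted p = 0.005255), which was at 0.003 (adjusted p = 0.9841) on number 2. On the 8 number 2 arrays alone, 14 were higher and 1, HIST1H4C, was lower, beside 20.3% and 20.5%. HIST2H2BE was at 1.81 on number 1 and 1.06 on number 2, HIST2H2AA3 at 1.48 and 0.79, HIST2H4A at 1.12 and 0.98, HIST1H2AM at 1.14 and 0.67, and HIST2H2BF at 0.73 and 0.87, with adjusted p-values of at most 0.00031 in these 10 fits. HIST1H2BK, not called over all arrays, was at 0.37 (adjusted p = 0.02653) on number 1 and 0.70 (adjusted p = 1.92e-05) on number 2. The same held for 4 genes named after their values were seen: HIST1H4H, at 1.14 (adjusted p = 4.937e-05) on number 1 and 0.71 (adjusted p = 1.297e-05) on number 2, HIST1H2AC, at 1.14 (adjusted p = 1.317e-05) and 0.55 (adjusted p = 0.000239), HIST2H2AC, at 1.04 (adjusted p = 2.201e-05) and 0.31 (adjusted p = 0.02327), and HIST1H2BJ, at 0.77 (adjusted p = 0.0002197) and 0.36 (adjusted p = 0.02028). Other calls were uneven between the numbers. HIST1H4C was at -0.11 (adjusted p = 0.4049) on number 1 and -0.51 (adjusted p = 0.0003461) on number 2. HIST1H3H was at 1.25 (adjusted p = 3.378e-05) on number 1 and 0.30 (adjusted p = 0.006831) on number 2. HIST1H2AG was at 0.37 (adjusted p = 0.008564) and 0.15 (adjusted p = 0.1715), and HIST2H3D passed on neither number, at 0.24 (adjusted p = 0.06878) and 0.16 (adjusted p = 0.1593). Array by array, 11 of the 37 (29.7%) had all 4 doxorubicin arrays above the other 4 on both numbers, beside 6.92% of all genes. These 11 include both HIST2H2AA copies. In 0 were the doxorubicin arrays all below the others on both numbers, beside 7.8%. With the 2 numbers mixed, HIST1H2AM and HIST2H2BF alone kept all 8 above all 8, which is 5.41% of the 37 beside 5.36% of all genes.

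**Figure D4:**
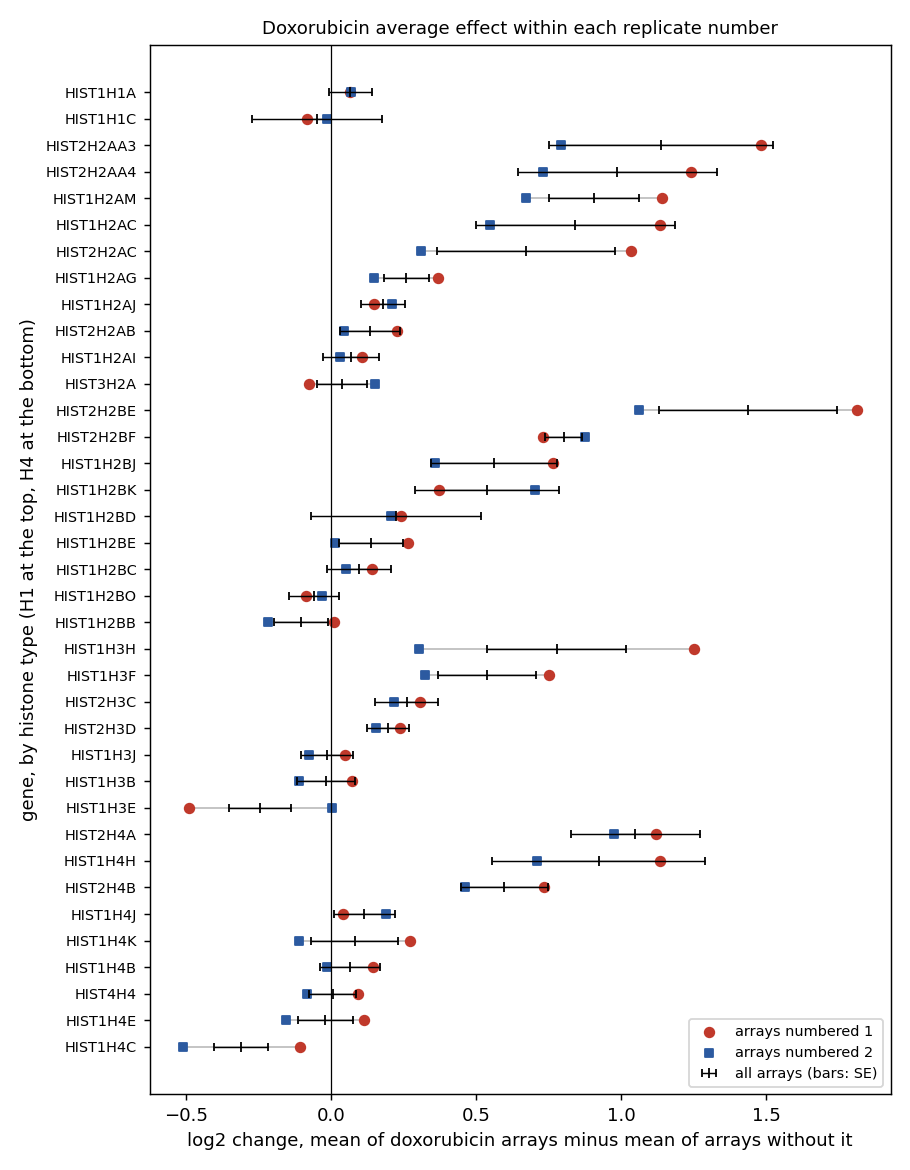
Doxorubicin average effect (log2, horizontal axis) on each tested histone gene (rows), fitted on the number 1 arrays, the number 2 arrays and all 16 arrays, with bars of 1 SE. HIST2H2BE, HIST2H2AA3 and HIST1H3H lie further from 0 on number 1 than on number 2, and HIST1H4C lies further below 0 on number 2.

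The single groups against DMSO, which share the same 2 DMSO arrays, gave few calls with 2 arrays a group. For doxorubicin alone HIST2H2BF was called, at 0.72 (SE 0.13, 1.65-fold, adjusted p = 0.002312), 1 of 37 beside 6.48% of all genes higher, and 0 were lower beside 7.12% of all genes, with 6 of 37 under an unadjusted p of 0.05 in either direction. For all 3 drugs it was at 1.18 (SE 0.13, 2.26-fold, adjusted p = 1.889e-05), with entinostat and doxorubicin at 1.24 (SE 0.13, 2.37-fold, adjusted p = 1.216e-05), and with ATRA and doxorubicin at 0.56 (SE 0.13, 1.48-fold, adjusted p = 0.00875). Entinostat with doxorubicin gave 3 higher beside 13.2% of all genes, namely HIST2H2BF, HIST1H2AM at 0.98 (SE 0.31, adjusted p = 0.02777) and HIST1H2AJ at 0.45 (SE 0.15, adjusted p = 0.03967). All 3 drugs gave 3 higher beside 13%, namely HIST2H2BF, HIST1H2AM at 1.02 (SE 0.31, adjusted p = 0.02208) and HIST1H2AG (adjusted p = 0.03695). HIST1H2AG was not well above background on either DMSO array. With DMSO set no lower than the lowest detected value, it was 1.34-fold higher, which is an estimate and not a limit. Its treated arrays read 49.9 and 17.1. ATRA with doxorubicin gave HIST2H2BF alone, beside 7.4% of all genes. None was called lower in these 3 comparisons, beside 14.8%, 14.8% and 7.57% of all genes lower, with 6, 6 and 5 of the 37 under an unadjusted p of 0.05 in either direction. Leaving out single arrays of the groups compared left 1 to 8 higher genes for entinostat with doxorubicin and for all 3 drugs, with 8 without the treated replicate 2 and 1 without any of the other 3 arrays, and ended the calls of HIST1H2AM without DMSO replicate 1, DMSO replicate 2 or the treated replicate 1, with adjusted p-values of 0.06646 to 0.316, and those of HIST1H2AG without the same 3, at 0.09558 to 0.3743. HIST1H2AJ was lost without any of its 4 arrays, at 0.06121 to 0.2224, and the ATRA with doxorubicin call of HIST2H2BF without DMSO replicate 2 or the treated replicate 2, at 0.06247 and 0.0573.

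Entinostat and ATRA without doxorubicin moved no histone gene past the threshold in limma. Entinostat alone gave 0 of 37 higher or lower, beside 1.32% of all genes higher and 0.257% lower, with 1 under an unadjusted p of 0.05. ATRA alone gave 0, beside 0.0234% and 0%, with 0 under an unadjusted p of 0.05. The pair gave 0, beside 1.78% and 0.677%, with 1 under an unadjusted p of 0.05. Averaged over the other drugs, 8 arrays against 8, entinostat raised HIST2H2BF by 0.34 (SE 0.06, 1.27-fold, adjusted p = 0.001398), 1 of 37 beside 11% of all genes, and lowered 0 beside 12.3%. On number 2 alone this was 0.38 (adjusted p = 0.008743), and on number 1 alone the adjusted p was 0.0561. Without doxorubicin, the mean log2 value of HIST2H2BF was 6.59 with DMSO and 6.71 with entinostat, 6.72 with ATRA and 6.83 with the pair. With doxorubicin it was 7.31 alone and 7.83 with entinostat, 7.15 with ATRA and 7.77 with all 3 drugs. Within single numbers entinostat called few members too. On number 1 alone 3 of 37 were higher and 0 lower, beside 10% of all genes higher and 10.1% lower, namely HIST1H1C, at 0.45 (adjusted p = 0.007118), HIST1H3F, at 0.45 (adjusted p = 0.02107), and HIST1H4H, at 0.54 (adjusted p = 0.009782). On number 2 alone HIST2H2BF was the 1 higher and 2 were lower, beside 9.76% and 8.86%, namely HIST2H2AA3, at -0.26 (adjusted p = 0.04625), and HIST2H4B, at -0.28 (adjusted p = 0.04684). On number 2 HIST1H3F was at -0.06 and HIST1H4H at -0.10, and on number 1 HIST2H4B was at 0.07 and HIST2H2AA3 at 0.02. The sign of these thus differed between the numbers, while HIST1H1C was at 0.13 on number 2. Whether the numbers differ in this was not tested. The ATRA average effect called 0 of 37, beside 0.105% higher and 0.00584% lower, with 1 under an unadjusted p of 0.05. The entinostat by doxorubicin interaction called 0 of 37, beside 1.13% higher and 0.73% lower, with 1 under an unadjusted p of 0.05 and the lowest adjusted p, 0.09597, in HIST2H2BF. On number 1 alone HIST1H3H passed it, at 1.21 (adjusted p = 0.03862), but on number 2 alone it was at -0.14 (adjusted p = 0.7515). The median interaction over the 37 was 0.16 on number 1 and -0.14 on number 2, and this difference was not tested.

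The genes that make, process and package histones were read on the same arrays, and in 3 of 4 lists more of them were lower than higher with doxorubicin. Of 16 tested genes for stem-loop processing, 2 were higher and 9 lower in the doxorubicin average effect, with a median change of -0.24. SLBP had 822.7, 521, 713.8 and 388.2 on number 1 with doxorubicin, against 723.7, 827.4, 972.1 and 910.2 without it. Number 2 gave 520.3, 354.3, 619.4 and 521.4 for it, against 977.4, 949, 1063 and 911.6. It fell by 0.69 on the log2 scale (SE 0.11, adjusted p = 9.713e-05), with every doxorubicin array below every other array that had the same number except that doxorubicin alone on number 1 was above entinostat alone. LSM10, a subunit of the U7 particle that directs the cut behind the stem-loop, read 219.1 to 398.6 on the doxorubicin arrays, against 578.7 to 768.8 on the others, and fell by 0.99 (SE 0.09, adjusted p = 5.782e-07). CSTF2, a cleavage factor used by both histone and tailed transcripts, fell by 0.79 (SE 0.08, adjusted p = 1.435e-06).

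Of 11 genes for histone gene transcription, 5 were higher and 1 lower, with a median of 0.26. CCNE1, the cyclin E that activates CDK2 at the start of S phase, rose by 0.59 (SE 0.10, adjusted p = 0.000146), TBPL1, a TBP-related factor, by 0.38 (SE 0.08, adjusted p = 0.00195), and E2F1 by 0.37 (SE 0.11, adjusted p = 0.01504). The 1 lower gene, NPAT, the coactivator of histone genes that CDK2 phosphorylates, is named after its values were seen and fell by 0.32 (SE 0.09, adjusted p = 0.01). Of 13 tested chaperone genes, 2 were higher and 5 lower, with a median of -0.16. ASF1B, a chaperone of H3 and H4, read 1792.5 to 3140.9 on doxorubicin arrays, against 343 to 864.3 on the others, and rose by 2.31 (SE 0.09, adjusted p = 2.24e-09), while SUPT16H of the FACT complex fell by 0.53 (SE 0.07, adjusted p = 2.67e-05) and CHAF1A of the CAF-1 complex by 0.40 (SE 0.11, adjusted p = 0.009704). Of 25 tested S phase genes, 3 were higher and 8 lower, with a median of -0.11. The largest changes were in CCNA2 (cyclin A2) at -1.16 (SE 0.10, adjusted p = 8.226e-07), the primase subunit PRIM1 at -1.07 (SE 0.12, adjusted p = 4.977e-06) and the helicase subunit MCM2 at -0.71 (SE 0.09, adjusted p = 1.355e-05). Beside these counts, 19.8% of all genes were higher and 21.3% lower. With entinostat averaged over the other drugs, 0, 1, 1 and 0 genes of the 4 lists were higher and 6, 4, 3 and 11 lower, of 16, 11, 13 and 25 tested in the order just given, beside 11% of all genes higher and 12.3% lower.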

How the data were processed

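The authors deposited 1 background-subtracted intensity and 1 detection p-value per gene and array, from which values below 0 were kept (27.5% to 28.2% per array), and a second table of log2 values made with limma, per the submitters' processing notes. How the beads of a gene were combined, and the genome build, are not given in the sources used here. Signals were corrected with limma's normexp (version 3.58.1, R 4.3.3, offset 50), quantile normalised and put on the log2 scale. Genes with a detection p-value under 0.05 on at least 2 of the 16 arrays were kept (17126 of 34691 names), after 92 spike-ins and 3270 unnamed clusters were left out. Group means were fitted with lmFit and eBayes (8 residual degrees of freedom) in 11 comparisons: 7 treatments against DMSO, the average effects of 3 drugs and the entinostat by doxorubicin interaction. All adjusted p-values are limma's, with Benjamini-Hochberg adjustment over the 17126 genes, and a call is an adjusted p under 0.05. The script was tested on simulated data. For arrays, the number of samples limits the precision.

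Named are the members called in any of the 11 comparisons, the member with the highest mean signal of each type, and the 3 largest called changes of each pathway list. Any other histone or pathway gene in the text was chosen after its values were seen. "Not well above background" means a detection p-value of 0.05 or more on every array of a group and a signal under 22.4, which is 3 times the noise SD. Members and lists were chosen with earlier results of these data known. The fits on arrays of 1 replicate number were added after the data were seen. They hold 1 array a group and leave 3 residual degrees of freedom. Their p-values thus rest on the drug combinations that have no term, and not on replicates. Alternatives were 2 other background settings, no quantile step, the deposited log2 table, other detection filters, a replicate block, a robust trend, fewer groups and leaving out each array. In the main fit, samples of the same number were not treated as pairs, since the labels do not say that the number marks a shared batch. A shift that they share thus counts there as spread within groups.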

Additional observations from a re-analysis of the deposited data

Results flagged for a closer look

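Among the 33 clustered histone genes too dim to test, 2 stood above 3 times the noise SD (22.4 signal units) and were detected on 1 treated array while being detected on neither DMSO array. HIST1H2AD, an H2A gene, read 24.9 on ATRA with doxorubicin replicate 1. HIST1H2BH, an H2B gene, read 26.2 on ATRA with doxorubicin replicate 2. Each is 1 value just past the limit, among 33 genes read on 16 arrays, and the other replicate of the group did not share it.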

How the results depend on the processing

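Each called change of a named histone gene kept its sign under the alternatives run for it. For the doxorubicin average effect the count of higher genes was 10 to 13 with an offset of 16, no quantile step, the deposited log2 table, no filter or detection on at least 8 arrays, 9 with a robust trend, which ended HIST1H3H (adjusted p = 0.05026), HIST2H2AA3 (0.08132) and HIST2H2AA4 (0.08734), and 6 with the background taken from the detection p-values. That setting also gave 1 higher gene for entinostat with doxorubicin, 0 for ATRA with doxorubicin, 1 for all 3 drugs and 1 for the interaction, and its cause was not tested. An offset of 16 gave 2 for ATRA with doxorubicin. Fitting only the arrays of the 2 groups compared gave 4 for doxorubicin alone and 4 for ATRA with doxorubicin. Leaving out single arrays gave 7 to 16 higher and 1 to 2 lower for the doxorubicin average, 1 to 2 higher and 0 to 1 lower for doxorubicin alone, 1 to 8 higher for entinostat with doxorubicin, 0 to 1 for ATRA with doxorubicin, 1 to 8 for all 3 drugs and 1 to 3 for the entinostat average. On number 1 alone the entinostat average gave 3 higher and the interaction 1, and on number 2 alone the entinostat average gave 2 lower beside 1 higher. With the replicate number as a block, 18 genes were higher in the doxorubicin average, 9 higher and 1 lower for doxorubicin alone, 12 higher for entinostat with doxorubicin, 10 for ATRA with doxorubicin, 11 for all 3 drugs and 2 for the entinostat average. Shares of all genes called with the block or with arrays left out are not given. These counts thus do not set histone genes against other genes. The labels do not say that the number pairs the samples. The number 1 minus number 2 differences of 28 pairs of groups all correlated positively across genes, at 0.0194 to 0.424, with 2 pairs at or under 0.1. Arrays of the same number thus shared part of their difference, which the main fit counts as spread within groups. In the doxorubicin average, 5 genes above 0.5 on the log2 scale were not called by the main fit. With the block all 5 passed, at adjusted p-values from 5.482e-06 (HIST1H2AC) to 0.0003969 (HIST1H2BJ). Signals near the noise SD of 7.34 to 7.48 limit what can be read in the dim genes, and detection p-values were a poor guide for HIST1H2BD, which read 67.7 to 349.5 but was detected on 6 arrays.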

Other observations

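The clustered histone genes known to be specific to testis stood at the noise in these breast cancer cells. HIST1H1T, the testis H1, read -17.7 to -6.1 signal units over the 16 arrays. HIST1H2AA, the testis H2A, read -13.2 to 5.8, and HIST1H2BA, the testis H2B, read -8.9 to 6.6. HIST3H3, the testis H3, read -8.9 to 14.6. All 4 were detected on 0 arrays, doxorubicin arrays included. Of the 33 dim genes, 26 were detected on 0 arrays and 7 on 1.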
